A study of Salmo salar with 59 samples.

Results

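The pituitary glands of 5 pubertal male Atlantic salmon were compared with those of 12 clearly immature males, on 17 of the 59 one-colour arrays of the study and of the 20 that were labelled as pituitary. All fish were post-smolts kept in brackish water and sampled after 18 weeks, and each array held the RNA of 1 whole gland from 1 fish. The pubertal fish were 190 and 245 from light group A, under continuous light, and 202, 211 and 213 from light group B, under increasing light. By the testis stage on the labels, fish 213 was in Stage III, fish 190, 211 and 245 in Stage IV and fish 202 in Stage V. In the histology, fish 245 and 211 are as advanced as fish 202, so these stage labels are not certain. The immature fish were all labelled Stage I. They were fish 188 from group A, fish 203 from group B, 5 fish (176, 180, 193, 198 and 255) from group D and 5 fish (221, 226, 233, 236 and 240) from group E. Groups D and E had decreasing light, and group E also received a low-fat diet. In the histology scores, fish 203 had medium germinative compartments with tubules and high cell division, whereas the other immature fish had small ones. The legend of the histology images places tubules in other fish, so this score is not certain. Calling fish 203 clearly immature rests on its stage. Fish 188 and 203 are the only immature fish of groups A and B, so values within these groups depend on fish 203.

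The other 3 pituitary arrays stayed out of the comparison. Fish 160 and 250 carry Stage I labels, but the study holds that both may be classed as maturing, in part from genes of these pituitaries. Leaving them out therefore uses pituitary values, and their own values are given beside the main results. The array labelled fish 184 did not look like pituitary. Summed over 8 hormone and lineage markers of the gland, its level on the linear scale was 0.886, against 1937 to 2815 on the pubertal and 1424 to 2460.5 on the immature arrays. Of these 8 markers, 5 were not well above background on that array. The 8 include the gonadotropin genes lhb and fshb, which are tested below, so leaving this array out also uses pituitary values. Among the rest, prl, pomca and pou1f1 were at -5.59, -2.13 and -6.75 on the log2 scale used below. The lowest of the 17 arrays were at 7.70, 8.54 and 7.33. The marker sums of the fish 184 array for erythrocytes (324), macrophages and neutrophils (74.5) and fibroblasts (113) lay above those of all 17 arrays.

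Maturity was not spread evenly over the rest of the design. All 5 pubertal fish came from light groups A and B, and 10 of the 12 immature fish from groups D and E. Arrays were scanned in 2 batches, and the pubertal fish were all in scan batch 1, which also held fish 188, 203, 176 and 180 of the immature fish. Only 3 slides held one fish of each kind. Light and scan batch can be told from maturity only through those few fish, so values within them stand beside the main results. Between 65.2% and 82.2% of the spots were well above background on the pubertal arrays, against 69.5% to 84.3% on the immature arrays, and no spot was saturated. The number of fish limits the precision of every value.

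The pituitary drives puberty through a pair of gonadotropins, follicle-stimulating hormone (FSH) and luteinising hormone (LH). Each is made of a common alpha subunit and a beta subunit of its own, and both are released under the control of gonadotropin-releasing hormone from the brain. In salmonid males FSH acts from the first steps of spermatogenesis, whereas LH dominates towards spermiation. The steroids of the growing testis act back on the gland. In teleosts, axons of hypothalamic neurons run straight into the pituitary, so RNA of a whole gland can include that of neural tissue.

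Levels are given as normalized log2 values, the log2 of the processed spot signal minus that of the 75th percentile of the same array. The log2-ER is the mean of the pubertal minus the mean of the immature fish. A probe was called at an adjusted p under 0.05 (limma, adjusted over all 34748 probes tested) with a log2-ER beyond 0.8, a 1.74-fold difference. This held for 303 probes (0.872% of those tested), of which 242 were higher (0.696%) and 61 lower (0.176%) in pubertal fish. Their median log2-ER was 1.65 and -1.15, against -0.01 for all probes tested. A difference above 2 was found for 88 of the higher and below -2 for 9 of the lower probes. Every pubertal fish lay above every immature fish at 154 of the 242 higher probes (0.570% of all probes tested did so), and below at 13 of the 61 lower probes (0.0863% of all). The calls rest on these same fish, so the lack of overlap is a description and no separate evidence. A RefSeq gene was found for 214 of the 303, and 77 of these had a true symbol, not just a LOC number. At an unadjusted p with the same limit, 822 probes passed (2.37%). In such whole-gland RNA, more cells of a type and more RNA per cell cannot be told apart.

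The beta subunits of both gonadotropins were higher in pubertal fish, whereas the common alpha subunit was not. The gene lhb, which encodes the LH beta subunit, stood at 8.18, 8.28, 7.75, 8.07 and 8.14 in fish 190, 245, 202, 211 and 213. Among the immature fish it ran from 3.74 through a median of 4.90 to 6.18, with the highest value in fish 180. The groups did not overlap, and the means were 8.08 ± 0.20 (SD, n = 5) and 4.78 ± 0.77 (SD, n = 12). The log2-ER of 3.30 ± 0.33 (SE, adjusted p = 1.13e-05) is a 9.87-fold difference. It was called again among the fish of scan batch 1 alone (log2-ER 2.91, adjusted p = 0.0062) and of light groups A and B (3.22, with an adjusted p of 0.0168).

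For fshb, the FSH beta subunit, the 5 pubertal fish lay close together at 9.0, 8.72, 8.55, 8.17 and 8.42, in the same order of fish. The immature fish were spread far more widely, from 3.15 in fish 203 through a median of 6.24 to 8.09 in fish 176. Fish 176 thus lay just under the lowest pubertal fish. The means were 8.57 ± 0.31 (SD, n = 5) and 6.11 ± 1.21 (SD, n = 12), which gave a log2-ER of 2.47 ± 0.52 (standard error) and an adjusted p of 0.0222. This call was fragile, since it was lost without any single one of the 5 pubertal fish (adjusted p up to 0.0802) and in scan batch 1 alone (2.54, adjusted p = 0.483). It was also lost with fish 160 and 250 counted as immature (2.11, adjusted p = 0.245). In light groups A and B the difference was 4.32 (adjusted p = 0.0335), where one of the 2 immature fish is fish 203, the lowest of all.

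The common alpha subunit, glha1, was at 8.34 ± 0.23 (SD, n = 5) in the pubertal and at 8.34 ± 0.25 (SD, n = 12) in the other group. The 95% confidence interval of its log2-ER ran from -0.30 to 0.29. The thyrotropin beta subunit, tshba, was at 8.47 ± 0.37 against 8.92 ± 0.29 (SD, n = 5 and 12), a log2-ER of -0.45 that did not pass the test (adjusted p = 0.394). The immature fish of light groups A and B were low for this gene, at 8.48 and 8.58. Of the 5 probes taken by the list of hormone subunits, lhb and fshb were called higher and 0 lower (0.872% of all probes tested were called). The fifth probe, gphna, stands for a gephyrin gene that is not a hormone subunit.

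Among the regulators of gonadotropes, nr5a5 was the only one of 8 probes that was called (0.872% of all probes tested were). It encodes a nuclear receptor of the NR5A family, to which steroidogenic factor 1 belongs. Its values in fish 190, 245, 202, 211 and 213 were 0.87, 0.33, 0.47, 0.72 and 0.87. The immature fish ranged from -2.47 (fish 203) through a median of -0.86 to 0.12 (fish 255), so that the groups did not overlap. The log2-ER was 1.55 ± 0.29 (SE, adjusted p = 0.00884), and in scan batch 1 alone it was 1.92 with an adjusted p of 0.137. The gene was called in light groups A and B (2.64, adjusted p = 0.0496), which include the lowest immature fish, 203. With fish 160 and 250 as immature the call was kept (1.45, adjusted p = 0.0302). Its relative nr5a1b, which encodes steroidogenic factor 1, was at 0.28 ± 0.31 (SD, n = 5) against -0.93 ± 0.96 (SD, n = 12). The groups overlapped, and the log2-ER of 1.22 did not pass the test (adjusted p = 0.299). None of the 10 probes of the activin, inhibin and follistatin system, which regulates fshb locally, was called in limma, 0 passed at an unadjusted p with the same limit, and 0 in the methods' t-test. Their log2-ER ran from -0.47 to 0.03. With 0.872% of all probes tested called, 0 of 10 says little about this system.

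The steroid genes that were called were all higher in pubertal fish, 3 of 18 probes for enzymes and transporters and 1 of 5 for receptors (0.872% of all probes tested were called). The gene hsd3b1 encodes 3-beta-hydroxysteroid dehydrogenase, which makes progesterone and androstenedione from their precursors. It stood at -0.10, -1.98, -0.10, 1.05 and -0.03 in fish 190, 245, 202, 211 and 213, and between -4.30 and -3.40 (median -3.58) in the immature fish. The log2-ER was 3.48 ± 0.31 (SE, adjusted p = 2.71e-06). Fish 245 was the lowest pubertal fish but still clear of every immature fish. It stayed called in scan batch 1 alone (3.50, adjusted p = 0.0211), but not in light groups A and B (3.41, with an adjusted p of 0.188).

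Brain-type aromatase, cyp19a1b, which turns androgens into estrogens, was at 0.69, 0.76, 0.99, 1.12 and 0.43 in the pubertal fish in the same order. The immature fish lay between -1.53 and -0.12, with a median of -0.63, and no value was shared. The log2-ER was 1.5 ± 0.18 (SE, adjusted p = 0.000102) and 1.48 in scan batch 1 alone (adjusted p = 0.0166), but the call was lost in light groups A and B (1.3, with an adjusted p of 0.161). A smaller difference was seen for hsd17b3, an enzyme known to make testosterone in the mammalian testis, at 0.13 ± 0.33 (SD, n = 5) against -0.95 ± 0.39 (SD, n = 12). Its log2-ER was 1.08 (adjusted p = 0.00682), with fish 245 at -0.33 below the highest immature fish at -0.17. It was lost in scan batch 1 alone (1.17, adjusted p = 0.164) and in light groups A and B (1.20, with an adjusted p of 0.343). A second probe of hsd17b3 had a log2-ER of -0.06 (adjusted p = 0.987), so the probes of this gene disagree.

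The progesterone receptor gene, pgr, was at -2.04, -1.99, -1.30, -0.53 and -1.44 in fish 190, 245, 202, 211 and 213. It reached from -5.88 to -2.31 in the immature fish (median -4.47), with fish 203 of light group B at the top, next to the lowest pubertal fish. The log2-ER of 2.79 ± 0.44 (SE, adjusted p = 0.00162) fell to 2.10 in scan batch 1 alone (adjusted p = 0.247) and to 2.04 in light groups A and B (adjusted p = 0.230), so the call was lost in both. The estrogen receptor gene esr1 was at -0.52 ± 0.31 (SD, n = 5) and -0.68 ± 0.40 (SD, n = 12), and the 95% confidence interval of its log2-ER, from -0.26 to 0.58, ends far below the log2-ER of pgr. With fish 160 and 250 counted as immature, hsd3b1 stayed called (3.04, adjusted p = 0.0222). In that fit the calls of cyp19a1b (1.26, adjusted p = 0.0931), pgr (2.48, adjusted p = 0.0579) and hsd17b3 (0.91, adjusted p = 0.237) were lost.

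The neuropeptide precursors moved in both directions, with pdyn and cckb higher, cart and grp lower, and the other 14 of 18 probes not called (0.872% of all probes tested were called). The pattern that formed this list also took in receptors such as npy8ar. The gene pdyn encodes prodynorphin, the precursor of opioid peptides that in mammals act on the neurons that release gonadotropin-releasing hormone. Its level was 3.13, 1.96, 3.08, 3.83 and 3.09 in fish 190, 245, 202, 211 and 213. The immature fish ran from -3.27 through a median of -2.32 to -0.30 in fish 240, more than 2 log2 units under the lowest pubertal fish. The log2-ER was 5.19 ± 0.37 (SE, adjusted p = 2.33e-07), a 36.6-fold difference and the largest among genes with a symbol. Scan batch 1 alone gave 5.0 (adjusted p = 0.000998), and light groups A and B gave 4.64 (adjusted p = 0.0243).

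The other called neuropeptide genes had overlapping groups and did not hold in these subsets. For cckb, a precursor of cholecystokinin, the pubertal fish lay between -1.90 and 0.05 and the immature fish between -5.23 and -0.64 (median -3.89). Its log2-ER was 2.64 (adjusted p = 0.0432), and this call was lost when any fish except 203, 180 or 240 was dropped (adjusted p up to 0.132). The gene grp, for gastrin-releasing peptide, stood at 3.25 and 3.23 in the pubertal fish of light group A and at 1.63, 2.17 and 1.87 in those of group B. The immature fish lay between 2.87 and 4.63, so that only the group B fish were below them. Its log2-ER was -1.36 (adjusted p = 0.0399), and dropping any fish except 190, 245, 188, 203 or 176 ended the call (adjusted p reaching 0.161).

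The gene cart encodes a peptide that reduces feeding. It was between -2.23 and -0.78 in the pubertal fish and between -1.14 and 1.13 in the immature fish (median 0.20), a log2-ER of -1.50 (adjusted p = 0.0254). The 2 immature fish from light groups A and B, at -1.14 and -0.82, were the lowest of the 12, and among light groups A and B alone the difference was -0.43 (adjusted p = 0.662). Without fish 190, 245, 202 or 211 the call was also lost (adjusted p up to 0.0907). For the tachykinin gene tac3a the groups overlapped over nearly their whole range, from -6.02 to -2.83 and from -6.19 to -1.15, and the log2-ER was -1.24 (adjusted p = 0.74). The related tac1 was well above background on 1 pubertal and 1 immature array and was not tested.

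A neurofilament gene and its neighbour had some of the largest differences. The gene nfm, the medium subunit of the neurofilaments that support axons, was at 1.82, 0.91, 1.68, 1.77 and 2.59 in fish 190, 245, 202, 211 and 213. The immature fish were packed between -2.70 and -1.51 (median -2.12). The log2-ER was 3.83 ± 0.21 (SE, adjusted p = 9.21e-09), a 14.3-fold difference. In the assembly Ssal_v3.1 the next gene on chromosome 11, with 0 genes between them, is LOC106563330, which has no name in the sources used here. It had the largest log2-ER of all probes, 6.64 ± 0.34 (SE, adjusted p = 6.4e-09), or 99.8-fold. Its values were 4.84, 2.87, 4.55, 5.70 and 5.67 in the pubertal fish in the same order, and between -2.31 and -1.30 in the immature fish (median -2.07). Both genes were called in scan batch 1 alone (3.77 and 6.45) and in light groups A and B (3.56 and 6.4).

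The neurofilament genes nefl and inaa, which were found by symbol, did not follow. Whether the unnamed LOC106563330 encodes a neurofilament was not examined. The light subunit nefl was at -3.95 ± 0.43 (SD, n = 5) and -3.84 ± 0.54 (SD, n = 12), and alpha-internexin, inaa, at -2.94 ± 0.36 and -3.0 ± 0.41. The 95% confidence intervals of their log2-ER were -0.65 to 0.45 and -0.37 to 0.49. In the list of neurofilaments and synaptic proteins, which by its symbols does not hold nfm, 2 of 24 probes were called (0.872% of all probes tested were), both higher. The first was nrn1a, for neuritin, which promotes the outgrowth of neurites. It was at -3.12, -2.03, -1.37, -1.56 and -3.02 in the pubertal fish, against -5.65 to -3.07 in the immature fish. Fish 190 thus overlapped with the highest immature fish (198), and the log2-ER was 1.92 (adjusted p = 0.00556). The related probe nrn1 had a log2-ER of 0.11, with a 95% confidence interval from -0.41 to 0.64. The study counts a gene it calls LCR transmembrane neuronal protein 1 among the upregulated genes of this gland. The probe of lrtm1 was looked up for it, but whether this is the same gene is not settled. That probe was not called with the fish and limits used here. Its log2-ER was -0.04 (95% confidence interval -0.66 to 0.58).

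The second was sv2bb, a synaptic vesicle protein, at 0.48 ± 0.34 (SD, n = 5) against -0.70 ± 0.45 (SD, n = 12) without overlap, a log2-ER of 1.19 (adjusted p = 0.00761). The gene mapta, for the microtubule-associated protein tau of axons, was at 1.36 ± 0.45 against 0.28 ± 0.26 (SD, n = 5 and 12). Its log2-ER was 1.09 (adjusted p = 0.00197), with fish 213 at 0.62 under the highest immature fish at 0.63. In scan batch 1 alone the calls of nrn1a (1.70, adjusted p = 0.185), sv2bb (1.35, adjusted p = 0.0623) and mapta (1.03, adjusted p = 0.241) were lost. In light groups A and B they were lost too (adjusted p = 0.393, 0.240 and 0.383). With fish 160 and 250 as immature, those of nrn1a and sv2bb were lost (0.338 and 0.0718) and that of mapta was kept (0.0264). Under normexp nrn1a was not called (0.75, adjusted p = 0.131), while sv2bb and mapta were. The summed level of the list of brain neuron markers was 6.36 to 8.0 in pubertal and 4.95 to 8.05 in immature fish, and that of glia and myelin 72.5 to 116 and 6.95 to 113. Neither list had a called member among 10 and 8 probes tested (1 each at an unadjusted p with the same limit), and their part in these differences was not tested. A list for the neurohypophysis and hypothalamic axons matched 0 probes. For hypothalamus and brain regions, 0 of 8 probes tested were called (1 at an unadjusted p with the same limit). Their median log2-ER was -0.23, with 6 below 0 and 2 above. The share of neural tissue in each gland was thus not measured.

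**Figure D1:**
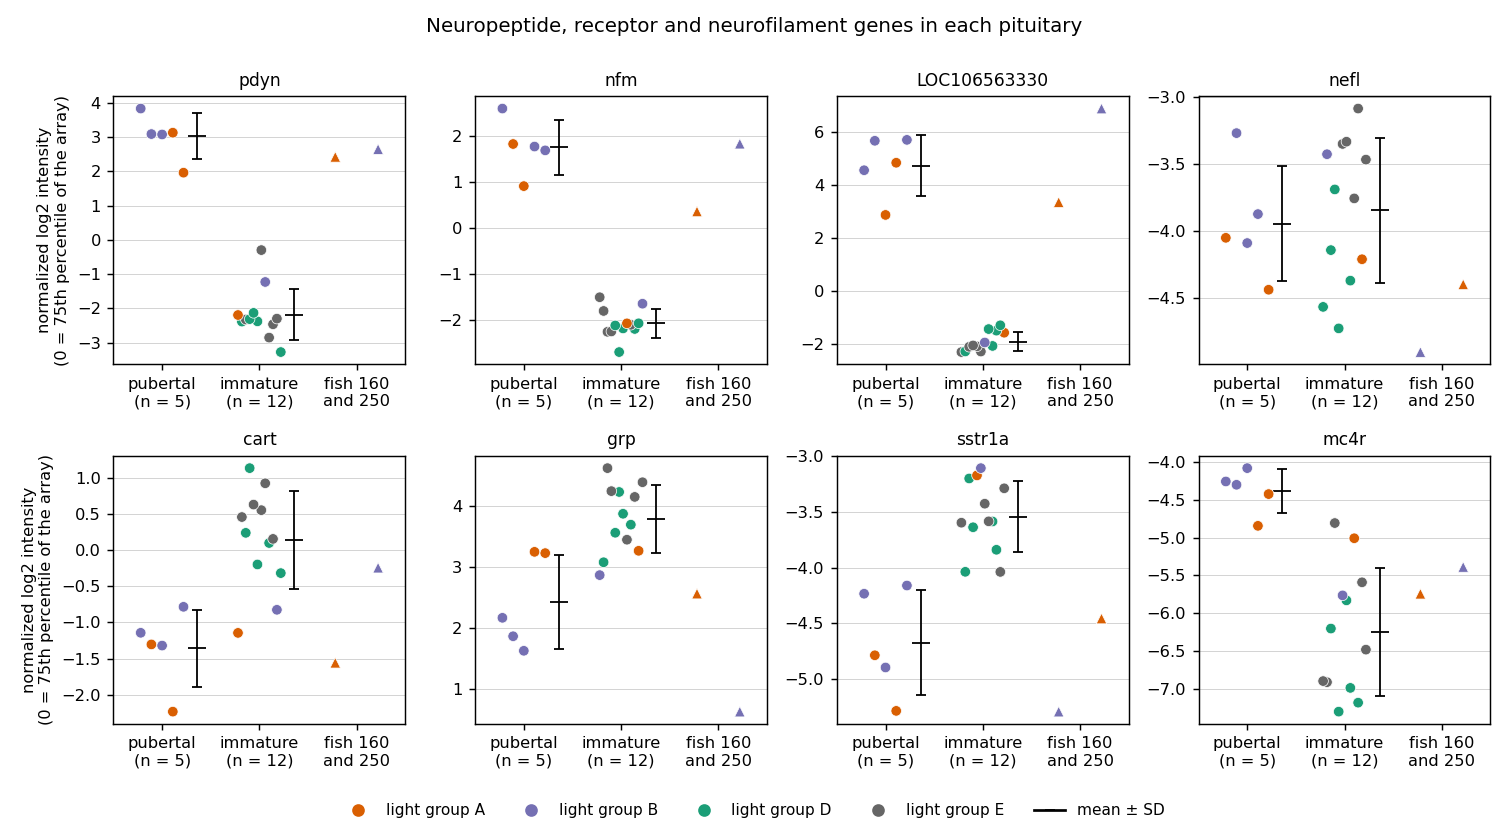
Normalized log2 intensity (vertical axis, 0 is the 75th percentile of the array) of 8 neuropeptide, receptor and neurofilament genes in the 5 pubertal fish, the 12 immature fish and fish 160 and 250 (triangles), coloured by light group, with the mean and SD of the first 2 groups. Values of pdyn, nfm and LOC106563330 do not overlap between the groups, those of nefl do, and the immature fish of light groups A and B are the lowest of the immature fish for cart.

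Several receptor genes differed, in both directions. In the list of neuropeptide and transmitter receptors, p2rx7 was the only one of 23 probes called (0.872% of all probes tested were), at 1.94, 1.57, 1.0, 1.52 and 0.17 in fish 190, 245, 202, 211 and 213. This gene encodes an ATP-gated cation channel. The immature fish ranged from -0.90 to 0.44 (median -0.58), with fish 203 above the pubertal fish 213, and the log2-ER was 1.74 (adjusted p = 0.000564). The melanocortin receptor mc4r, which curbs appetite in the brain of vertebrates, was well above background in all 5 pubertal fish but in 4 of 12 immature fish. It was tested only with the help of its pubertal arrays, since at least 5 arrays well above background were required. Its values were -4.38 ± 0.29 against -6.25 ± 0.85 (SD, n = 5 and 12), a log2-ER of 1.87 (adjusted p = 0.0137), lost without fish 202 or 211 (adjusted p up to 0.06). The somatostatin receptor sstr1a went the other way, at -5.29, -4.79, -4.16, -4.90 and -4.23 in the pubertal and -4.04 to -3.10 in the immature fish, without overlap. Its log2-ER was -1.13 (adjusted p = 0.00359). With normexp background correction these differences shrank, to 0.20 for mc4r and -0.26 for sstr1a (adjusted p = 1 for each).

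Orphan receptors were also among the called probes. For gpr6, the pubertal fish lay within a narrow band, from 0.93 to 1.27, above all immature fish (-0.67 to 0.41), for a log2-ER of 1.16 (adjusted p = 0.000277) that was called in scan batch 1 alone (1.48) and in light groups A and B (1.51). With fish 160 and 250 as immature its call was lost (0.998, adjusted p = 0.0817). The probe of gpr17, a receptor known from oligodendrocyte precursors in mammals, was at -1.36 ± 0.79 against -3.70 ± 0.65 (SD, n = 5 and 12), a log2-ER of 2.34 (adjusted p = 0.000886). Both immature fish of light groups A and B, at -2.84 and -2.35, were above the other immature fish, of which the highest was at -3.30, and fish 203 was above the pubertal fish 213 at -2.48. The leptin receptor lepr differed by 0.94 (adjusted p = 0.00292), with 1 overlapping pair, fish 213 at 0.91 and fish 203 at 1.04. In scan batch 1 alone the calls of p2rx7, mc4r, sstr1a, gpr17 and lepr were lost, with adjusted p of 0.312, 0.241, 0.319, 0.288 and 0.423. In light groups A and B they were lost as well (0.475, 0.349, 0.176, 0.463 and 0.539).

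The hormones of the other pituitary cell types showed no call after adjustment, which does not show that they were unchanged. Prolactin (prl) was at 7.85 ± 0.11 against 8.39 ± 0.31 (SD, n = 5 and 12), a log2-ER of -0.54 (adjusted p = 0.122). Pro-opiomelanocortin (pomca), the precursor of corticotropin and melanotropin, was at 8.96 ± 0.22 against 9.31 ± 0.28, a log2-ER of -0.36 (adjusted p = 0.505). Somatolactin beta (smtlb) was at 8.46, 7.75, 7.72, 7.71 and 7.82 in fish 190, 245, 202, 211 and 213, and from 5.5 through a median of 6.73 to 7.82 in the immature fish. Its log2-ER of 1.23 did not pass the test (adjusted p = 0.126), and it passed after quantile normalization (1.43, adjusted p = 0.0369). The lineage factor pou1f1 was at 7.47 ± 0.12 and 7.73 ± 0.11 (SD, n = 5 and 12), a log2-ER of -0.25 (adjusted p = 0.333). In the list of other hormones and lineage factors, mc4r was called higher and sstr1a lower, out of 21 probes (0.872% of all probes tested were called). At an unadjusted p 9 of the 21 passed (8.13% of all probes tested), 4 of them beyond the limit of 0.8. The unadjusted 95% confidence intervals were negative throughout for prl (-0.86 to -0.22), pomca (-0.67 to -0.04) and pou1f1 (-0.44 to -0.06). That of smtlb was positive throughout (0.51 to 1.96). In light groups A and B those of prl, pomca and pou1f1 spanned both signs. In scan batch 1 alone they stayed negative (-1.02 to -0.19, -0.82 to -0.07 and -0.68 to -0.05), and none of these genes was called there. The prohormone convertase pcsk2 had an adjusted p of 0.0352, but its log2-ER of -0.76 stayed under the limit.

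Other genes that were clearly higher in pubertal fish came from outside the hormone and neural groups. The folate receptor gene folr was at 4.78, 3.76, 3.30, 3.74 and 3.84 in fish 190, 245, 202, 211 and 213, and within 1.03 to 1.76 in the immature fish, a log2-ER of 2.5 ± 0.19 (SE, adjusted p = 5.34e-07). Creatine kinase B (ckba), which buffers ATP in brain, stood at 3.17 ± 0.58 against a very tight 1.17 ± 0.15 (SD, n = 5 and 12), a log2-ER of 2.0 (adjusted p = 2.01e-06). The reductase cyb5r2 was at 0.53 ± 0.51 and -3.20 ± 0.63 (SD, n = 5 and 12), a log2-ER of 3.73 (adjusted p = 9.2e-07). The small heat shock protein gene hspb6l differed by 1.92 (adjusted p = 6.84e-05) without overlap. All 4 genes were also called in scan batch 1 alone. The calls of folr and ckba were lost in light groups A and B (2.43 with an adjusted p of 0.116, and 2.06 with one of 0.185), and with fish 160 and 250 as immature (adjusted p = 0.102 and 0.282), while those of cyb5r2 and hspb6l were kept in both.

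Some rises rested on probes that were dim in immature fish. Those of si:ch73-49p17.1 (log2-ER 4.38, well above background on 1 of 12 immature arrays), LOC106592756 (4.93, 1 of 12), LOC106611098 (4.02, 3 of 12, named Olfactomedin-4 by the study) and mlrv (3.77, 4 of 12) are of this kind. So are gpr61l (3.50, 4 of 12), pi15b (2.72, 3 of 12), elovl5 (2.2, 4 of 12) and slc24a4a (2.22, 5 of 12). All were well above background on the 5 pubertal arrays except gpr61l and pi15b, which were so on 4. Of these 8 genes, 6 did not overlap between the groups and gpr61l and pi15b did. The neighbouring genes LOC106611038 (4.13, 2 of 12) and LOC106611039 (4.08) on chromosome 9 belong here too. The second was not well above background on any immature array and entered the test only through its 5 pubertal arrays. At least 5 such arrays were required, so all these genes except slc24a4a were tested only with the help of their pubertal arrays. The sizes of these differences are therefore not settled, and the lack of overlap is not independent of that filter. With normexp background correction, which adds an offset that draws dim signals together, the log2-ER of these 10 genes lay between 0.22 and 0.89, and only that of LOC106611098 remained called (adjusted p = 0.0425). The calls of gpr61l and pi15b were lost in scan batch 1 alone (adjusted p = 0.197 and 0.189), and theirs and that of mlrv in light groups A and B (0.407, 0.412 and 0.114). A second probe of mlrv, a myosin light chain gene, was at 1.44 (adjusted p = 0.5).

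Part of these genes were also high on the array labelled fish 184, which lacked the pituitary hormones. LOC106611038 stood at 6.97 there, LOC106611039 at 7.09, cyb5r2 at 4.65, folr at 5.07, elovl5 at 2.13 and nr5a5 at 5.41, each above every pubertal fish. The array was in none of the fits above. Muscle markers summed to 2.64 to 4.36 in the pubertal and 2.48 to 3.85 in the immature fish.

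Among the falls, the largest of a gene with a symbol was dhrs3, an enzyme that reduces retinal. It was at 0.62, 0.64, 0.38, 0.23 and -0.05 in fish 190, 245, 202, 211 and 213 and between 0.45 and 3.11 in the immature fish (median 2.5), a log2-ER of -1.98 (adjusted p = 0.00454). Its 2 lowest immature values, 0.45 and 1.17, were those of fish 203 and 188, and in light groups A and B the difference was -0.39 (adjusted p = 0.534). The gene tex26 showed no overlap, at -3.93 to -2.88 against -2.47 to -1.36, a log2-ER of -1.34 (adjusted p = 0.00072), but its call was lost in scan batch 1 alone (-1.12, adjusted p = 0.241) and in light groups A and B (-1.18, with an adjusted p of 0.365). LOC106604649, which has no name here, was at -5.46, -5.03, -5.83, -5.88 and -6.07 in the pubertal fish (well above background on 3 of 5) and between -3.94 and -2.63 in the immature fish. Its log2-ER of -2.47 (adjusted p = 1.1e-06) was called in scan batch 1 alone (-2.50) and in light groups A and B (-2.82), but under normexp it was -0.50 (adjusted p = 0.248).

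The other named falls had overlapping groups. They were si:dkey-284p5.3 (log2-ER -1.56), fbxo40.1 (-1.15, well above background on 2 of 5 pubertal arrays), ccbe1 (-1.14, a gene of lymphatic vessel growth), cfap43 (-0.93, a gene of motile cilia) and mcfd2 (-0.92, a cargo receptor of the secretory pathway). Of these, the calls of si:dkey-284p5.3 and cfap43 were each lost without 13 single fish (adjusted p up to 0.155 and 0.162), mcfd2 without 10 (up to 0.135), fbxo40.1 without fish 202, 211, 213 or 236 (up to 0.118) and ccbe1 without fish 190, 211 or 213 (up to 0.108). Among the rises, fragile calls were also seen for nkx3-2 and cox6b1, whose calls were lost without 14 single fish (adjusted p up to 0.112 and 0.183). Of the 46 named genes that were called, 34 kept the call whichever fish was left out.

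The number of calls depended on which immature fish were set against the pubertal fish. Among the fish of scan batch 1 alone (5 against 4), 92 probes were called (0.265%), and 83 of the 242 higher and 5 of the 61 lower probes were among them. With all 17 fish and the scan batch as a block, 144 and 11 of them were called again. Among light groups A and B (5 against 2, light group as a block), 64 probes were called (0.184%), including 38 and 2 of the above. Every pubertal fish lay above both immature fish of these 2 light groups at 194 of the 242 higher probes (6.23% of all probes tested) and below both at 38 of the 61 lower probes (7.10% of all). These fish were among those that gave the calls. Shares above those of all probes therefore follow in part from the selection and are only descriptions.

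On the 3 slides that held both kinds of fish (213 with 188, 190 with 176 and 245 with 180), 220 of the 242 higher probes were higher in the pubertal fish on every slide (11.9% of all probes tested were), and 48 of the 61 lower probes were lower (17.9% of all). All fish on these slides had also given the calls, so these shares too follow in part from the selection. With the slide as a block, these 3 pairs gave 0 calls in limma and 2421 probes at an unadjusted p with the same limit. The number that 3 such pairs give by chance was not examined, so 2421 cannot be read as few or many. In the fits on all 17 fish, with the scan batch as a block, on scan batch 1 alone, on light groups A and B, and with fish 160 and 250 as immature, 19 higher and 2 lower probes were called each time. The named ones without a LOC number were pdyn, nfm, cyb5r2, lhb, slc24a4a, elovl5 and hspb6l. These fits share all pubertal fish and the immature fish 188 and 203, so they are not independent of each other. Normexp was not among them, and under it the calls of slc24a4a (0.32) and elovl5 (0.22) were lost. The probe of elovl5, well above background on 4 of 12 immature arrays, was tested only with the help of its pubertal arrays.

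**Figure D2:**
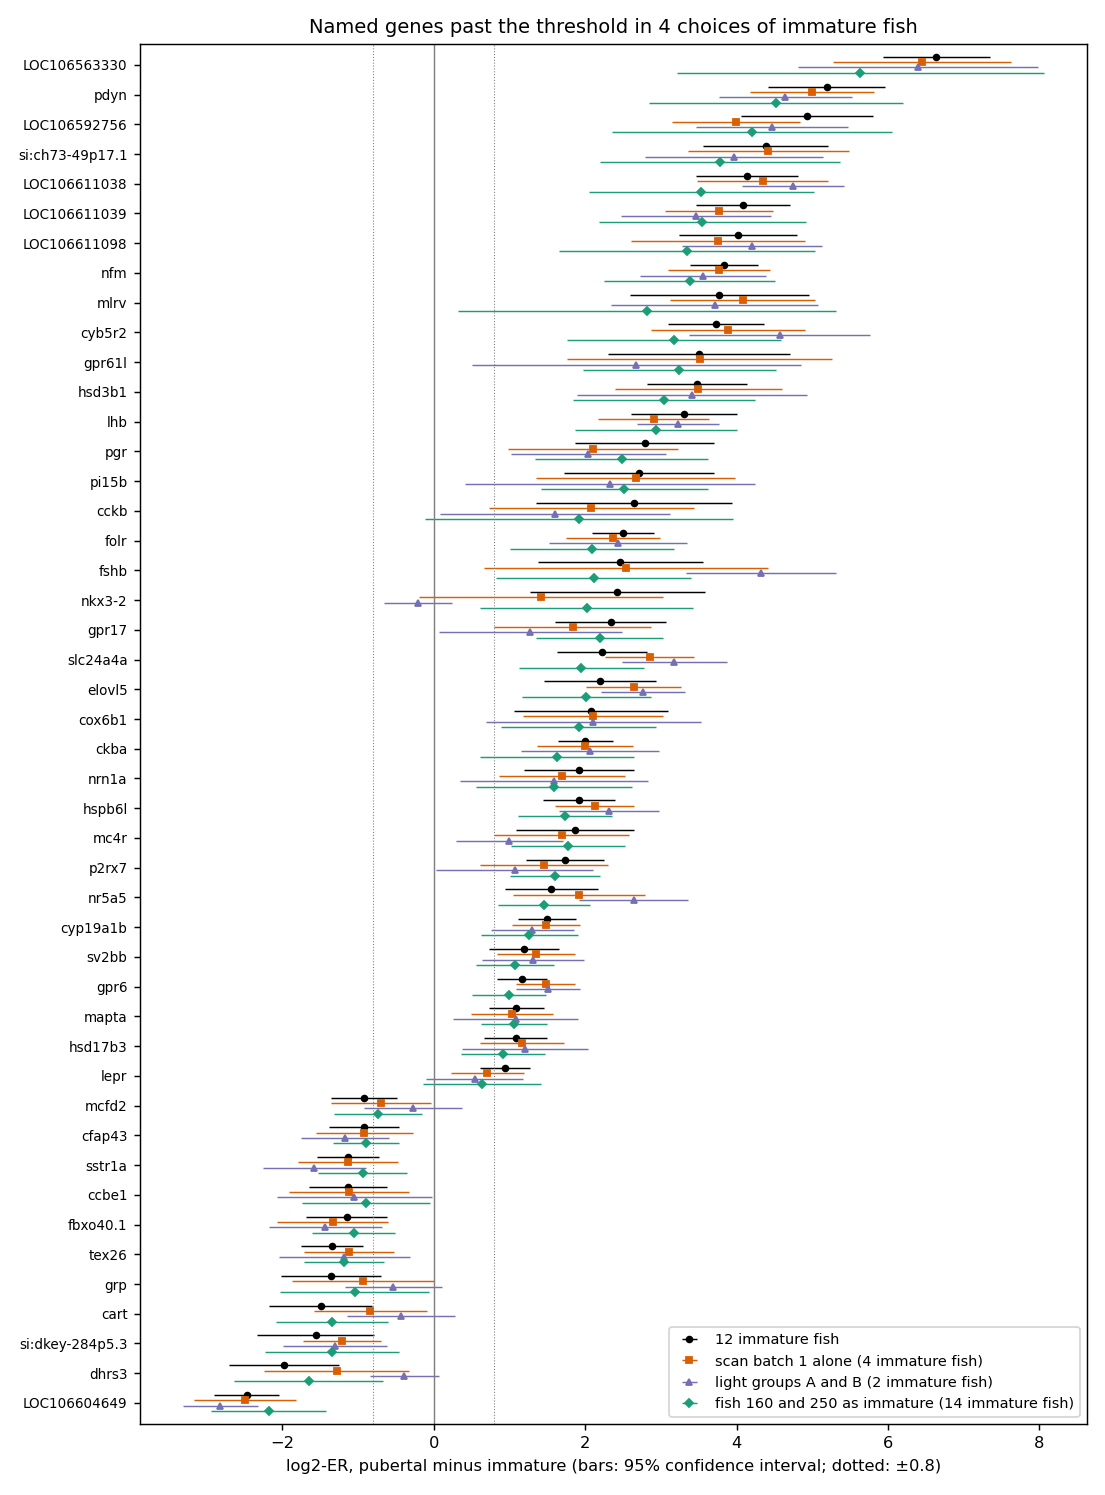
The log2-ER (horizontal axis, pubertal minus immature) of the 46 named genes past the threshold, with 95% confidence intervals, against 12 immature fish, the 4 of scan batch 1, the 2 of light groups A and B, and 14 with fish 160 and 250; dotted lines mark 0.8 in either direction. For pdyn, nfm and lhb the 4 estimates lie close together, whereas nkx3-2 is at 2.42 against all 12 immature fish and at -0.21 against the 2 of light groups A and B.

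In a few genes the 2 immature fish of light groups A and B sat with the pubertal fish rather than with the other immature fish. They were picked out after their values were seen. The homeobox gene nkx3-2 was between -0.25 and 0.17 in the pubertal fish, at 0.12 in fish 188 and 0.33 in fish 203, and between -3.34 and -1.97 in the 10 fish of groups D and E. It was called in the comparison of all fish (log2-ER 2.42, adjusted p = 0.0371), but among light groups A and B it was at -0.21 (adjusted p = 0.746). An elongase of long-chain polyunsaturated fatty acids, elovl2, was not called (3.42, adjusted p = 0.0819) and showed the same split, with fish 188 and 203 at 0.20 and -0.01, the pubertal fish between -1.02 and 0.23 and the fish of groups D and E between -6.23 and -3.16. Fish 176 and 180 of group D, which were in scan batch 1 as well, were at -3.30 and -2.78 for nkx3-2 and at -3.92 and -3.32 for elovl2. Both immature fish of groups A and B lay above all those of D and E at 28 of the 242 higher probes (4.46% of all probes tested) and below them at 13 of the 61 lower probes (5.34% of all). Both reached the range of the pubertal fish at 14 of the 242 higher and 4 of the 61 lower probes. The share of all probes tested that did so was not counted, so these 2 numbers cannot be read as few or many. Light treatment, and for group E diet, cannot be told apart from other differences between these fish.

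Fish 160 and 250 mostly stood with the pubertal fish. Fish 250 was from light group A and fish 160 from group B, and both arrays were in scan batch 1. All 5 pubertal fish had these light groups and this scan batch, so the values below do not tell maturity from light or batch. Fish 250 lay above every clearly immature fish at 83.1% of the 242 higher probes (8.66% of all probes tested) and below at 38 of the 61 lower ones (8.20% of all). Fish 160 did so at 62.8% (9.58% of all) and at 36 (12.4% of all). On a scale where 0 is the immature and 1 the pubertal mean, the median position over the higher probes was 0.779 for fish 250 and 0.777 for fish 160. Because pituitary genes had a part in setting these fish aside, these are descriptions. The fish differed from each other in single genes. For lhb, fish 250 was at 8.0, within the pubertal range, and fish 160 at 6.68, between the groups, while fshb was at 8.70 and 8.47 in both. Fish 160 was above every pubertal fish for LOC106563330 (6.88), folr (5.42), ckba (5.10), mlrv (1.87), cyb5r2 (1.63) and lepr (3.12). It lay within or below the immature range for gpr17 (-3.83), gpr61l (-5.44) and mapta (-0.31). Its summed muscle markers, 8.91, were above those of the 17 fish. Counted as immature, fish 160 and 250 reduced the calls to 106 (0.304%), of which 93 higher and 11 lower were among the 303.

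**Figure D3:**
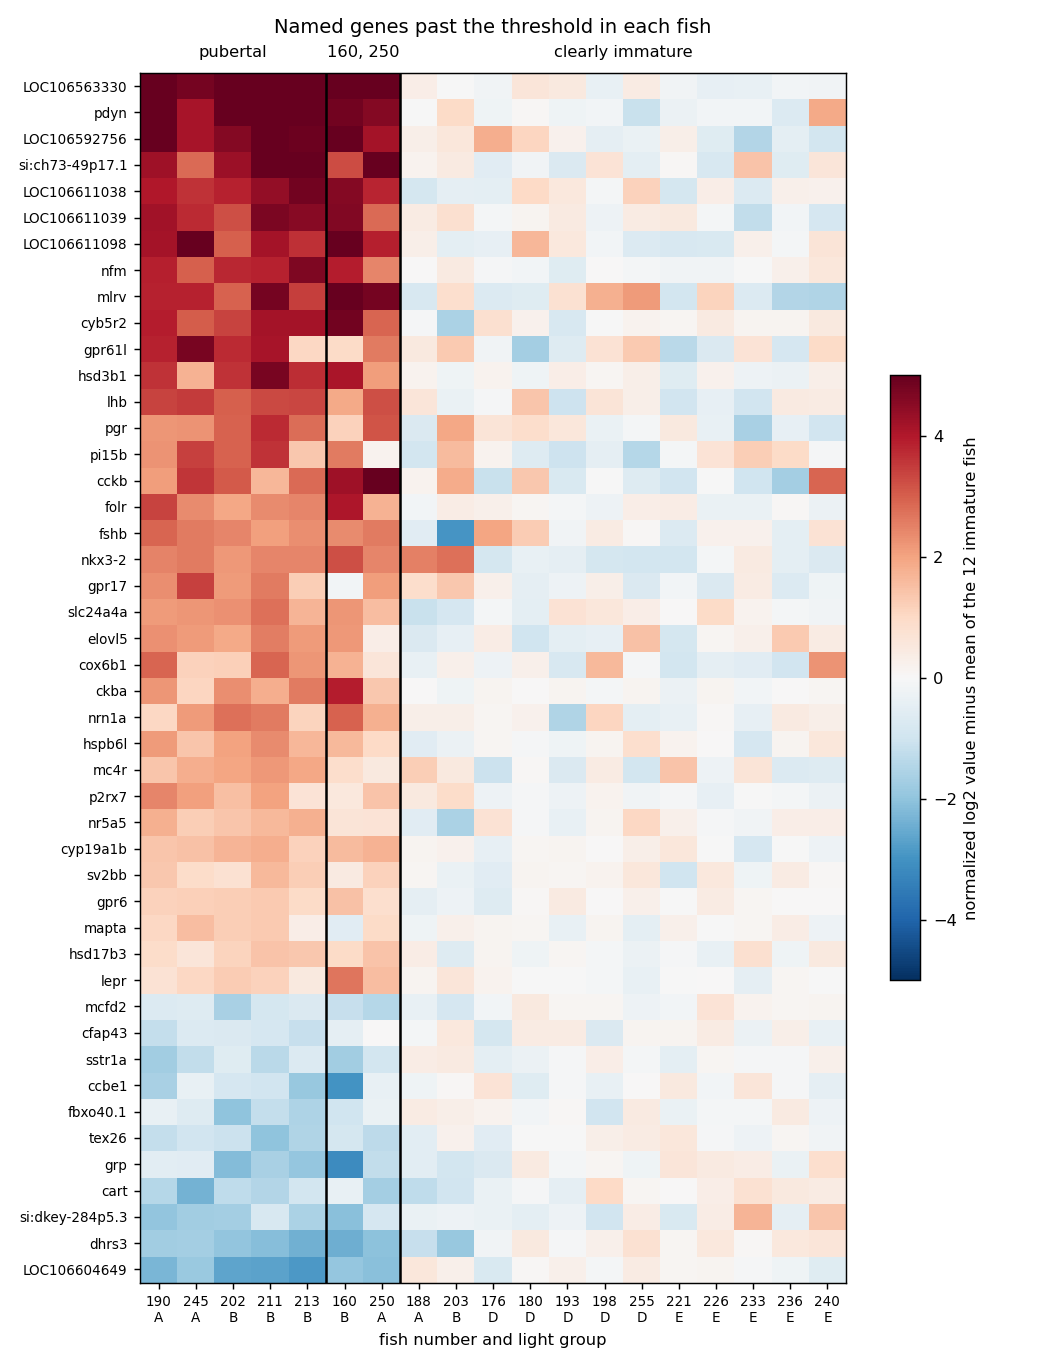
Each cell is the normalized log2 value of a named gene (rows) in a fish (columns, with light group) minus the mean of the 12 immature fish, cut at 5 in either direction. Fish 250 lies above every immature fish at 83.1% and fish 160 at 62.8% of the higher probes, while nkx3-2, dhrs3 and cart in fish 188 and 203 lean towards the pubertal values.

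Among the pubertal fish, the median position over the 242 higher probes ran from 0.906 in fish 245 to 1.12 in fish 211, on a scale that sets the mean of these same fish to 1. Fish 211 was the highest of the 5 at 75 and the lowest at 14 of these probes, whereas fish 245 was the highest at 40 and the lowest at 93. Fish 213 was the lowest at 78, among them gpr61l, gpr17, p2rx7, mapta and cyp19a1b. Stages were not compared, since the stage of some of these fish is not settled. The median SD over the higher probes was 0.459 in pubertal and 0.418 in immature fish, and over all probes tested 0.328 and 0.407.

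Most of the functional lists had no call. None was found in limma for ion channels (37 probes tested), clock and photoperiod genes (22), immediate early genes (13), cell cycle (40), extracellular matrix (50), growth factors (33), immune genes (78), cytosolic ribosomal proteins (53), hormone processing and granules (25) or chaperones of the endoplasmic reticulum (21). At an unadjusted p with the same limit, 0, 0, 1, 0, 3, 0, 1, 0, 1 and 0 of them passed (2.37% of all probes tested did), and in the methods' t-test after adjustment 0 in each. In limma 0.872% of all probes tested were called. Lists of this size would hold few calls or none at that share, so the lack of calls says little about these functions. The medians of these lists lay between -0.24 and 0.14, against -0.01 for all probes tested. Among the clock and photoperiod genes, dio3b, which inactivates thyroid hormone, had a log2-ER of 0.72 (adjusted p = 0.0777), and dio2, which activates it, one of -0.53 (adjusted p = 0.658). In the chaperone list hsp90b1 (0.68) and pdia4 (0.52) had adjusted p of 0.046 but stayed under the limit. Of the mitochondrial respiratory chain, 1 of 60 probes was called, cox6b1 (2.08, adjusted p = 0.0427), and of lipid metabolism 1 of 36, elovl5 (0.872% of all probes tested were called).

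Of the 53 ribosomal protein probes 50 were below 0, against 52.5% of all probes tested, with a median of -0.24. At an unadjusted p, 19 of them passed (8.13% of all probes tested), none beyond the limit of 0.8. Under the other scalings 43 to 51 of them were below 0 (41.3% to 55.9% of all), with medians from -0.22 to -0.09, and in light groups A and B 37 were (53.9% of all), with a median of -0.09. In scan batch 1 alone 48 were below 0 (median -0.17, against -0.02 for all probes tested). With fish 160 and 250 as immature 50 were (median -0.19, against -0.01). Cell cycle genes had 33 of 40 probes below 0 and a median of -0.15, and 21 of 40 below 0 in light groups A and B. In scan batch 1 alone 27 of these probes were below 0, and with fish 160 and 250 as immature 35 were.

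**Figure D4:**
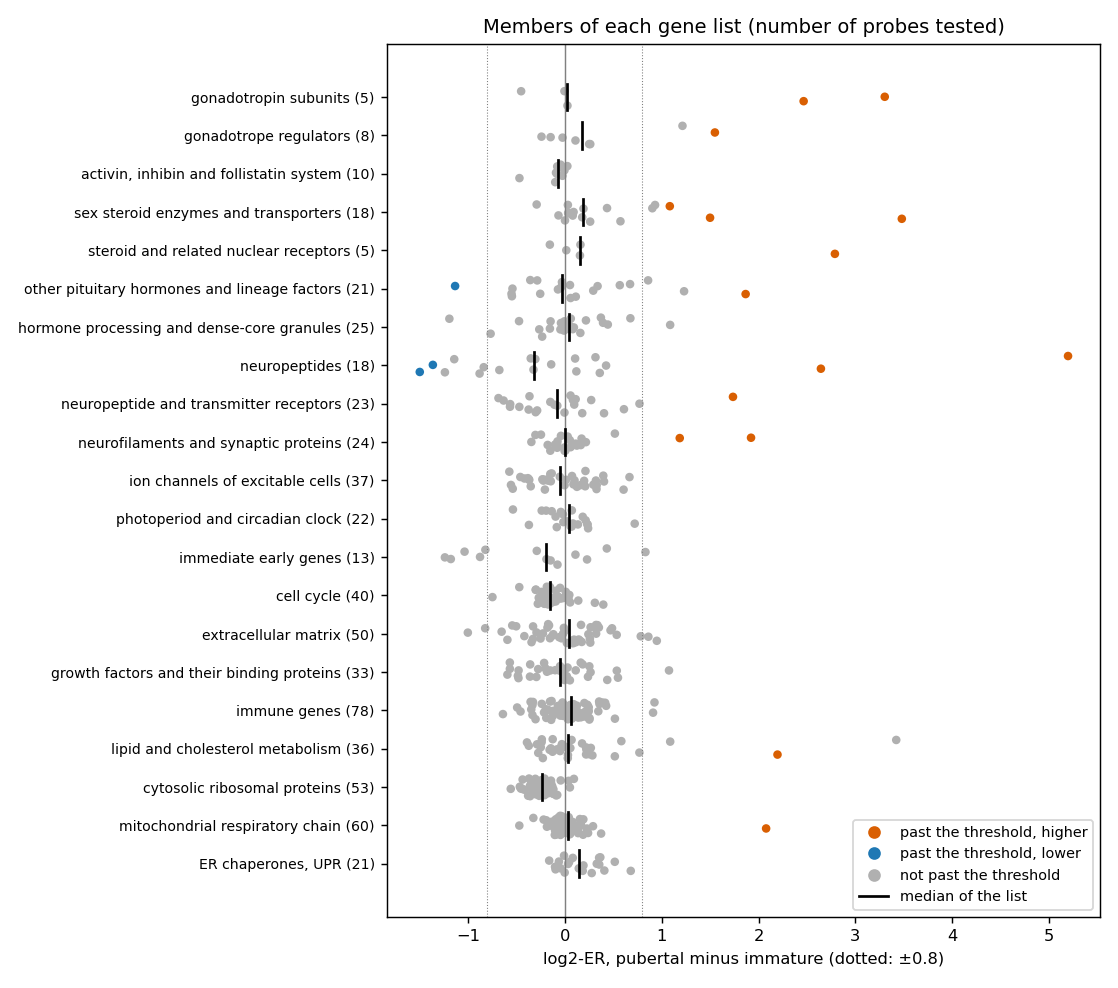
The log2-ER (horizontal axis, pubertal minus immature) of every tested probe in 21 gene lists (rows, number tested in brackets), with called probes coloured, a black bar at the median of each list and dotted lines at 0.8 in either direction. The neuropeptides hold 4 called probes and the steroid enzymes 3, most other lists 0 or 1 (0.872% of all probes tested were called), and the medians stay between -0.31 and 0.19.

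Over the 17 fish and fish 160 and 250, the genes with a symbol whose level followed lhb most closely were zgc:174895 (Pearson r = 0.909), meox2b (0.899), nfm (0.893), pdyn (0.890), i17ra (0.888), si:dkeyp-72h1.1 (0.883), si:ch73-49p17.1 (0.871), cyb5r2 (0.867), hspb6l (0.855) and arhgef16 (0.854), out of 7283 named probes. For fshb the value was 0.793. These 19 arrays fall into the groups described above, so the values describe mainly the distance between the groups. Within the 12 immature fish alone, the Pearson r of lhb was 0.075 with pdyn and 0.316 with fshb.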

How the data were processed

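The members, gene lists and tests were chosen with earlier results of these data known. Total RNA of 1 whole gland per array was hybridised in 1 colour (Cy3) to a 44 K salmon oligonucleotide array. Per the file headers, Agilent Feature Extraction 12.0.1.1 gave the deposited processed intensities, background-subtracted and detrended within each array but not scaled between arrays. A table of the authors' processed intensities, whose scaling is not stated in the sources used here, served as an alternative, and correlated with the scanner values at r = 0.9885 to 0.9968. Its median log2 value was 5.0 to 7.28 per array, and 3.29% to 45.0% of its cells were missing.

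Control spots and outlier spots (4 to 73 per array) were left out, spots of a probe were averaged, and each array was centred on the log2 of its 75th percentile. Probes well above background on at least 5 of the 17 arrays were tested, 34748 of 42386, with lmFit and eBayes of limma 3.58.1 in R 4.3.3, two-sided, with Benjamini-Hochberg adjustment. A call required an adjusted p under 0.05 and a log2-ER beyond 0.8. The script was tested on simulated data. Replicates were separate fish. The 75th percentile signal was 268 to 390 on pubertal and 141 to 615 on immature arrays, and the number of arrays limits the precision.

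Probes were matched by transcript to RefSeq genes of Ssal_v3.1 (25805, or 60.9%, of which 8170 had a symbol). The array's own build is not given in the sources used here, so no coordinates are printed. Salmon carry many duplicated genes, and what a probe binds besides its named transcript was not tested. Of the genes sought from the study's pituitary results, nr0b1, cckar, chrna3 and nxph1 matched no probe and were not examined. No value is given for synaptophysin, which was sought under the symbols syp and sypb. The gene htr3a was sought as well and was not called (log2-ER -0.36, adjusted p = 0.91). Named genes were those the study names for the pituitary, the 15 largest rises and 10 largest falls with a symbol or description, called members of each list (or the 2 of smallest adjusted p where none was called), and the 10 closest to lhb, with the brightest of several probes of a gene. The genes gpr17, elovl2, elovl5, slc24a4a, ckba, hspb6l, nr5a1b, gpr6, mapta, plp1b, lepr, dio3b, dio2, esr1, glha1, pou1f1, pomca, tshba, prl, pcsk2 and the LOC genes other than LOC106611098 were added with their values seen. Alternatives were other background correction, scaling and filters, scan batch, slide and light group as terms, fish 160 and 250 as immature, the array labelled fish 184 as pubertal, each fish left out, and the methods' t-test. The fit on the 3 shared slides was chosen after seeing the data.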

Additional observations from a re-analysis of the deposited data

Results flagged for a closer look

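Among the 5 pubertal fish, a single fish stood apart from the other 4 by Dixon's criterion in 4 of 84 named genes, and chance alone flags about 1 group in 20. For gpr61l, an orphan receptor, fish 213 was at -5.35 while the others lay between -2.67 and -1.65. For smtlb, somatolactin beta, fish 190 was at 8.46 and the others between 7.71 and 7.82. For smad4b, a mediator of activin signalling, fish 213 was at 2.15 and the others between 1.80 and 1.90. For mcfd2, fish 202 was at 0.877 and the others between 1.62 and 1.86.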

How the results depend on the processing

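No paired analysis was possible because the pubertal and immature pituitaries came from different fish, so that no fish number is shared between the groups. The slide was used as a block instead, on the 3 shared slides and as a random term (314 calls). Against 303 calls, there were 106 with fish 160 and 250 as immature, 114 with the array labelled fish 184 as pubertal, 130 with normexp, 178 with scan batch as a block, 92 in scan batch 1 alone, 64 in light groups A and B, and 0 on the 3 shared slides (2421 at an unadjusted p with the same limit). Neither the 0 calls nor the unadjusted count on the 3 shared slides can be read as few or many. The methods' t-test gave 751 unadjusted and 260 after Benjamini-Hochberg adjustment, and limma 822 unadjusted. Leaving out 1 pubertal fish gave 217 to 325 calls and 1 immature fish 266 to 326. Of the 46 named genes that were called, 24 lost the call with fish 160 and 250 as immature, 22 with normexp, 26 in scan batch 1 alone, and in light groups A and B 29 and nkx3-2, whose sign turned, so that 16 kept it. The causes were not tested.

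Signs turned for these genes. With the array labelled fish 184, fshb was at -0.013, smtlb at -1.18, gpr6 at -0.13, hsd17b3 at -0.056, col17a1b at -0.42, dio3b at -0.18, fgf1 at -0.69, nrn1 at -0.15 and inaa at -0.59. In light groups A and B, nkx3-2 was at -0.21, elovl2 at -0.37, inaa at -0.14, lrtm1 at 0.87, lyz at 0.077 and tac3a at 1.45. With scan batch as a block, and in scan batch 1 alone, esr1 was at -0.11, lrtm1 at 0.21 and nefl at 0.093. On the shared slides esr1 was at -0.37, lrtm1 at 0.25, smad4b at 0.034, nefl at 0.048 and tac3a at 0.42. With normexp, nrn1 was at -0.0020 and smad4b at 0.026. In the authors' values nrn1 was at -0.20, glha1 at 0.056 and smad4b at 0.11. For glha1, quantile normalization gave 0.26 and median scaling 0.022, and nefl was at 0.015 with fish 160 and 250 as immature. Leaving out 1 fish moved nrn1 between -0.11 and 0.23, inaa between -0.067 and 0.16, glha1 between -0.10 and 0.038, lrtm1 between -0.16 and 0.083 and nefl between -0.27 and 0.023. Of these, only fshb, gpr6, hsd17b3 and nkx3-2 were called in the comparison itself. For probes near background, the size of a difference depends on the background correction.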
